A study of Mus musculus with 14 samples.

Results

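The interleukin-1 family and inflammasome genes were followed here, 10 of the 55335 genes in the deposited count matrices: the interleukin-1 family ligands Il1a, Il1b, Il18 and Il33, the receptor antagonist Il1rn, the receptor genes Il1r1, Il1r2 and Il1rap, and the inflammasome genes Nlrp3 and Casp1. They were taken by gene symbol, and all 10 were found. The data are single-cell transcriptomes of whole spinal cords, with 1 cell suspension and 1 library per cord, from mice aged P115-120 (days after birth).

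The labels give 4 groups. SOD1 (3 libraries) is the strain B6SJL-Tg(SOD1*G93A)1Gur/J, which carries a human SOD1 transgene with a mutation that causes amyotrophic lateral sclerosis (ALS). Clec7aKO (4 libraries) is B6.129S6-Clec7atm1Gdb/J, which lacks the myeloid pattern recognition receptor gene Clec7a in all cells. SOD1_Clec7aKO (4 libraries) is labelled as the cross of both and has both alterations, and nTg (3 libraries) is labelled nTg only, the non-transgenic group. The strain names point to different backgrounds, the labels give no sex, and nothing in them says how the animals were bred, so the group and its background cannot be told apart. The study asked what Clec7a does to microglial immune responses at a middle stage of disease. In microglia, Clec7a lay between 821 and 914 CPM (UMIs of the gene per 1e+06 UMIs of the class) in the SOD1 libraries, between 34.5 and 103 in nTg, and between 0.941 and 2.99 in the 8 libraries labelled as knockouts, so Clec7a went against no label; it cannot tell SOD1_Clec7aKO from Clec7aKO, and the transgene itself was not checked.

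Interleukin-1 alpha and beta are the founding cytokines of the family. Il1b is made as a precursor after inflammatory stimulation and is cut to its active form by caspase-1, which is activated on inflammasomes such as the one built on the sensor NLRP3, while the alpha form is active without that cut. Both bind the receptor IL1R1, which signals together with its partner IL1RAP; the antagonist encoded by Il1rn occupies IL1R1 without signalling, and IL1R2 binds the ligands as a decoy. Interleukin-18 is another substrate of caspase-1, and interleukin-33 is a nuclear alarmin of glia, known in the cord from astrocytes and oligodendrocytes. In the nervous system, microglia are a main source of the interleukin-1 ligands, and endothelial cells are known to carry the receptor. Transcript counts do not show whether a precursor was cut or released.

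The stretches just before the transcription starts of 4 of these genes are shown here because 3 of them (Il1b, Il1rn and Il1r1) rose with the transgene in microglia in the results below and the other, Il1a, did not. Each run is the 250 bases before a RefSeq start (GRCm38.p6), 5′ to 3′ on the strand of the gene, with the motifs that were found in capitals.
Il1b, chr2:129371140-129371389, minus strand: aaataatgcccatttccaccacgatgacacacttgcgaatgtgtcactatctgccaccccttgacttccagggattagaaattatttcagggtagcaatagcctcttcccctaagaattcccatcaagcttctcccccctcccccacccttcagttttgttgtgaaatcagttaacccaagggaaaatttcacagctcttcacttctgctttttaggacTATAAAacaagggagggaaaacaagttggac
Il1a, chr2:129309973-129310222, minus strand: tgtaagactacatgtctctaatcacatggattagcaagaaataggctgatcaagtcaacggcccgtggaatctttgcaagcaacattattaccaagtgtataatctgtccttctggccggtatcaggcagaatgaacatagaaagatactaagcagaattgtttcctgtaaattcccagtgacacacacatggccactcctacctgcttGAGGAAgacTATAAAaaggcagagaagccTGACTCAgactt
Il1rn, first start, chr2:24336610-24336859, plus strand: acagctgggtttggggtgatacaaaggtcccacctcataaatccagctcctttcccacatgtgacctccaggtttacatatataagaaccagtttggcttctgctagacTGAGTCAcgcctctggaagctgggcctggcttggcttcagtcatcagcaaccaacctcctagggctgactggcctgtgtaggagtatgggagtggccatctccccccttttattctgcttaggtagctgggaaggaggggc
Il1r1, second start, chr1:40266336-40266585, plus strand: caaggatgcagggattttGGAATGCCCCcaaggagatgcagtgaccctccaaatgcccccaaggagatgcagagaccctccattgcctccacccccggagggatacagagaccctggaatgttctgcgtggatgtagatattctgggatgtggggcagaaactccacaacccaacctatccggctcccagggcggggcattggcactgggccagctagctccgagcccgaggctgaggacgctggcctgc
The letters searched, on both strands, were TATAAA for a TATA box, TGANTCA for AP-1, GAGGAA for PU.1 and the NF-kB consensus. Il1b and Il1a, which lie on the same strand of chromosome 2, both have TATAAA, from 31 and 32 bases before the start. Il1a also has an AP-1 match next to the start and a PU.1 match 41 bases before it, with no overlap between the 3. The Il1rn stretch has an AP-1 match that begins 141 bases before the start, and the Il1r1 stretch has an NF-kB match on the other strand that begins 232 bases before it. The starts of these genes that are not shown lack these matches. The first Il1r1 start and the second Il1rn start had no match of any motif searched. The third Il1rn start had only TATAAA, on the other strand and past the start. Among 32851 promoter windows, TATAAA occurred in 12.4% within the same 250 bases, AP-1 in 6.75%, PU.1 in 23.3% and NF-kB in 3.90%. Nlrp3, which did not rise in microglia, also has an NF-kB match, which begins 186 bases before its first start. These are matches of letters, and none was tested for binding.

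Across the series, 108892 barcodes were deposited, 3096 to 12367 per library, with 28819852 to 141204910 UMIs (unique molecular identifiers) per library and a median of 5190.5 to 14886 UMIs per barcode. Filtering left 90018 cells. The cell classes were rebuilt by clustering, and each class name below stands for clusters that are like that class by its markers. There were 51868 microglia (1005 to 7520 per library), 11719 endothelial cells, 7687 ependymal cells, 5740 astrocytes, 3921 oligodendrocyte precursors and 1750 mural cells, which were tested. Border-associated macrophages (646), T and NK cells (777), neurons (233), neutrophils (164) and oligodendrocytes (61) were too few in some libraries and are described by level, fibroblasts (101) had 2 to 16 cells per library and have no level, and 5351 cells stayed unnamed. In the tested classes the CPM of the 10 genes, of the pathway genes and of the summed markers are divided by the TMM factor of the library (trimmed mean of M-values, which sets most genes level between libraries); levels within clusters, in the untested classes and relative to another class have no such factor. In microglia that factor was 0.773 to 0.928 with the transgene and 1.04 to 1.25 without it, and in the other tested classes 0.916 to 1.06. The 10 genes were kept out of the genes used to cluster, 4 of which (Il1b, Il1rn, Il1r2 and Il33) would otherwise have been among them.

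Of the UMIs in the cells kept after filtering, microglia held 98.2% for Il1a, 97.9% for Il1rn, 97.5% for Nlrp3, 97.2% for Il1b and 95.0% for Casp1. The shares below have the same base. The other members were less concentrated there. Il18 had 58.5% of its UMIs in microglia, 11.3% in astrocytes and 11.2% in ependymal cells. Il33 had 61.6% in astrocytes and 8.95% in microglia, and Il1rap 41.0% in oligodendrocyte precursors and 32.7% in microglia. Of Il1r1, 37.0% was in endothelial cells, 30.5% in microglia and 26.3% in unnamed cells, and of Il1r2, 55.8% was in the 164 neutrophils and 28.0% in microglia. Of the 5351 unnamed cells, 3821 had both endothelial and mural markers. These shares follow cell numbers as well as levels.

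Ranked by level within a class, Il1a was highest in microglia, at 1082 ± 364 CPM (SD, n = 14), and the next class, T and NK cells at 184 CPM, was separate from it in every library. Il1b was highest in neutrophils, although only 2 libraries held 20 of them (876 and 5308 CPM), followed by border-associated macrophages at 1087 ± 917 (n = 13) and microglia at 883 ± 962 (n = 14), which were not apart beyond their spread. The order of these macrophages and microglia differed with the transgene. Without it, the macrophages had on average several times the microglial Il1b level, and with it about that level (no TMM factor, values at the end). Nlrp3 was 388 ± 101 CPM in microglia, and the libraries of neutrophils (mean 298) and border-associated macrophages (260 ± 104) overlapped those of microglia. Casp1 was 54.5 ± 27.3 CPM in border-associated macrophages and 45.9 ± 7.23 in microglia, again not apart. These means pool the 4 groups, while both libraries with 20 neutrophils are Clec7aKO. For Il1rn, the classes are therefore given within groups: in Clec7aKO it was 51.6 and 180 CPM in neutrophils, 6.01 to 25.7 in microglia and 0 to 89.5 in border-associated macrophages. In the 2 groups with the transgene it was 48.0 to 276 CPM in microglia and 6.70 to 48.4 in border-associated macrophages.

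The receptor genes were ordered differently. Il1r1 was highest in mural cells (46.5 ± 14.1 CPM) and endothelial cells (36.2 ± 16.4), which overlapped each other, and then fell away to 7.75 in astrocytes, 4.00 in microglia and 2.19 in oligodendrocyte precursors. Il1rap was 96.3 ± 24.0 CPM in oligodendrocyte precursors, beyond the summed spread from the next class with several libraries, and only 4.26 in microglia and 3.75 in astrocytes; 1 library with 20 oligodendrocytes gave 153. Il1r2 was a neutrophil gene here, at 226 and 603 CPM in the 2 libraries with 20 such cells against 9.41 in border-associated macrophages and under 1 CPM in microglia. Il18 was highest in astrocytes (93.2 ± 19.7 CPM) and oligodendrocyte precursors (80.4 ± 9.87), which overlapped, with ependymal cells at 28.0 ± 5.53 and microglia at 27.0 ± 2.51. Il33 was 93.9 ± 38.5 CPM in astrocytes, and the single library with enough oligodendrocytes had 961 CPM from 69 UMIs. The plot of levels by class shows the genes falling into a myeloid block and a set carried by glia and vessels.

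**Figure D1:**
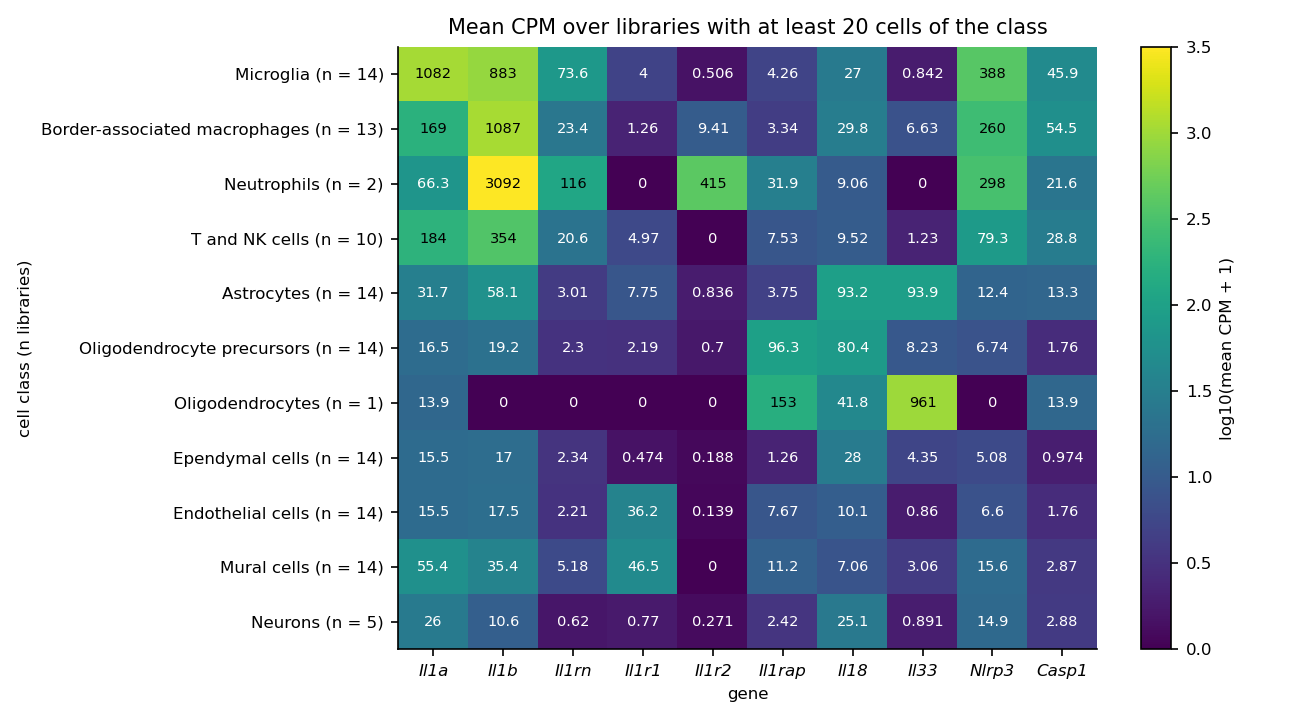
Mean level of each of the 10 genes (columns) in 11 cell classes (rows), in CPM of the class, over the libraries with at least 20 cells of the class; numbers give the mean and colour gives log10(mean CPM + 1). Il1a, Nlrp3 and Casp1 are seen mainly in the myeloid rows and Il1r1 in mural and endothelial cells. Il1rap is high in oligodendrocyte precursors, Il18 in astrocytes and oligodendrocyte precursors, and Il33 in astrocytes. The oligodendrocyte row, which rests on 1 library, is the highest for Il33 (961 CPM) and Il1rap (153 CPM).

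In microglia, Il1b was the ligand that separated mice with the transgene from mice without it. Its level was 158, 212 and 146 CPM in the 3 nTg libraries and 136, 238, 133 and 326 in the 4 Clec7aKO libraries. It was 799.8, 2041 and 1242 CPM in SOD1 and 734, 669.8, 2601 and 2924 in SOD1_Clec7aKO. Every library with the transgene was above every library without it, and within both transgenic groups the level varied over a wide range. The log2 fold change was 2.98 ± 0.58 (SE; edgeR quasi-likelihood test, adjusted p = 0.0014) for SOD1 against nTg and 3.06 ± 0.50 (adjusted p = 0.000232) for SOD1_Clec7aKO against Clec7aKO. Among the libraries numbered 1 to 4 in the labels, Il1b was 669.8 to 799.8 CPM in the 3 with the transgene and 136 in the 1 without it, and among the others 1242 to 2924 in 4 and 133 to 326 in 6. The 2 comparisons share no library, but they were fitted together and share 1 estimate of the spread.

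Il1a, the other ligand of the same receptor, did not separate the groups over all 14 libraries. It was 993, 1142 and 874 CPM in nTg, 688, 1201, 886 and 1187 in Clec7aKO, 723, 1816 and 1257 in SOD1, and 678, 684, 1342 and 1682 in SOD1_Clec7aKO. The 4 ranges overlapped. Among libraries 1 to 4, Il1a was 678 to 723 CPM in the 3 with the transgene and 688 in the 1 without it, and among the others it was 1257 to 1816 in the 4 with the transgene and 874 to 1201 in the 6 without it, with no overlap. The log2 fold change was 0.33 ± 0.37 (adjusted p = 0.517) and 0.15 ± 0.32 (adjusted p = 0.734), and it changed sign to -0.14 and -0.38 (adjusted p = 0.751 and 0.281) in a fit by library size alone, with no TMM factor, which was added after seeing the data. With libraries 1 to 4 treated as a block, an alternative added after seeing the data, Il1a passed the threshold for SOD1 against nTg at 0.58 (adjusted p = 0.0359), and it did so at 0.75 when a numeric term for the library number was added (adjusted p = 0.0399). The labels number the libraries up to 16. Those numbered 1 to 4 (SOD1_1, SOD1_Clec7aKO_1, SOD1_Clec7aKO_2 and Clec7aKO_1) had the lowest Il1a of their groups; what these numbers mark is not in the labels.

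The balance of the 2 ligands differed with the transgene. Per Il1a UMI there were 0.171 ± 0.0137 Il1b UMIs (SD, n = 3) in nTg and 0.205 ± 0.0515 (n = 4) in Clec7aKO. The same ratio was 1.07 ± 0.0737 (n = 3) in SOD1 and 1.43 ± 0.475 (n = 4) in SOD1_Clec7aKO. Within a library this ratio does not depend on depth, and no library without the transgene exceeded 0.275 while none with it was under 0.979.

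Il1rn, which encodes the antagonist of both ligands, rose with Il1b. It was 7.0, 4.46 and 9.34 CPM in nTg and 7.98, 15.3, 6.01 and 25.7 in Clec7aKO. It was 87.5, 181 and 128 CPM in SOD1 and 48.0, 71.0, 163 and 276 in SOD1_Clec7aKO. The groups with and without the transgene did not overlap, and the 2 groups with it did. The log2 fold change was 4.26 ± 0.68 (adjusted p = 0.000305) and 3.35 ± 0.56 (adjusted p = 0.000252). For every 100 Il1b UMIs, microglia had 4.31 Il1rn UMIs in nTg (range 2.10 to 6.41), 6.17 in Clec7aKO (4.52 to 7.88), 10.0 in SOD1 (8.87 to 10.9) and 8.21 in SOD1_Clec7aKO (6.25 to 10.6), so SOD1 lay above both groups without the transgene, and SOD1_Clec7aKO overlapped them.

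Il1r1, the signalling receptor, was low in microglia and rose in both comparisons. Its level was 2.59, 1.33 and 2.33 CPM in nTg, 1.77, 2.16, 1.39 and 0.839 in Clec7aKO, 6.60, 7.61 and 6.52 in SOD1, and 7.40, 6.80, 3.86 and 4.82 in SOD1_Clec7aKO. All 7 libraries with the transgene lay above the 7 without it. The summed level of 8 markers of endothelial cells, where Il1r1 is higher, in microglia was higher with the transgene too. This sum was 53.8 to 92.3 CPM in nTg and 42.8 to 71.9 in Clec7aKO against 146 to 187 in SOD1 and 77.7 to 217 in SOD1_Clec7aKO. As a percent of the endothelial level, the median of the same 8 markers was lower with the transgene (values below). The sum therefore does not stand for each marker, and its part in the Il1r1 result was not tested. The log2 fold change was 1.72 ± 0.33 (adjusted p = 0.00116) and 1.85 ± 0.29 (adjusted p = 0.000141). The partner Il1rap stayed between 3.53 and 5.83 CPM in all libraries and did not pass (log2 fold change 0.37 and 0.05, adjusted p = 0.124 and 0.81; -0.09 and -0.46 by library size alone, adjusted p = 0.727 and 0.0386). The decoy Il1r2 lay between 0.181 and 1.28 CPM, with log2 fold changes of -1.11 and -1.0 that did not pass (adjusted p = 0.169 and 0.135) but did by library size alone (-1.58 and -1.51, adjusted p = 0.0433 and 0.0239) and, in the second, without SOD1_Clec7aKO_4 (-1.41, adjusted p = 0.0441).

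In microglia, Il18 overlapped between the groups, at 27.0 ± 4.54 CPM in nTg, 28.6 ± 1.29 in Clec7aKO, 26.7 ± 0.352 in SOD1 and 25.8 ± 2.55 in SOD1_Clec7aKO (log2 fold change -0.02 and -0.15, adjusted p = 0.928 and 0.312). By library size alone it fell by 0.47 and 0.66 (adjusted p = 0.00902 and 0.000215), with 19.7 to 24.9 CPM in the libraries with the transgene and 28.0 to 37.8 in those without it, so its call rests on the scaling. Il33 was near the floor of 3 UMIs in some libraries, with 0.152 to 1.92 CPM. It was 0.361 ± 0.160 CPM in SOD1_Clec7aKO (6 to 40 UMIs per library) and fell against Clec7aKO by 1.70 on the log2 scale (SE 0.46, adjusted p = 0.00779), while in SOD1 it was 0.915 ± 0.314 CPM and its log2 fold change against nTg was -0.10 (adjusted p = 0.89). The summed level of 8 markers of astrocytes, where Il33 is far higher, was also lower in microglia with the transgene: 151 to 309.9 CPM in Clec7aKO against 88.7 to 163 in SOD1_Clec7aKO, and 153 to 208 in nTg against 116 to 156 in SOD1. Its part in the Il33 result was not tested.

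The inflammasome genes did not pass where Il1b did. Nlrp3, the sensor, was 467, 389 and 323 CPM in nTg, 249, 473, 372 and 385 in Clec7aKO, 244, 552 and 476 in SOD1, and 306, 277, 388 and 534 in SOD1_Clec7aKO. Its log2 fold change was 0.11 ± 0.31 (adjusted p = 0.816) and 0.02 ± 0.27 (adjusted p = 0.948). Casp1, the protease that cuts the precursors, was between 36.5 and 60.4 CPM in all 14 libraries, with log2 fold changes of 0.04 and 0.18 (adjusted p = 0.892 and 0.37). By library size alone both genes had lower values with the transgene that did not pass, -0.37 and -0.49 for Nlrp3 (adjusted p = 0.313 and 0.108) and -0.42 and -0.34 for Casp1 (adjusted p = 0.0511 and 0.0565). The ranges of both genes overlapped in all 4 groups, as the plot of levels by library shows.

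**Figure D2:**
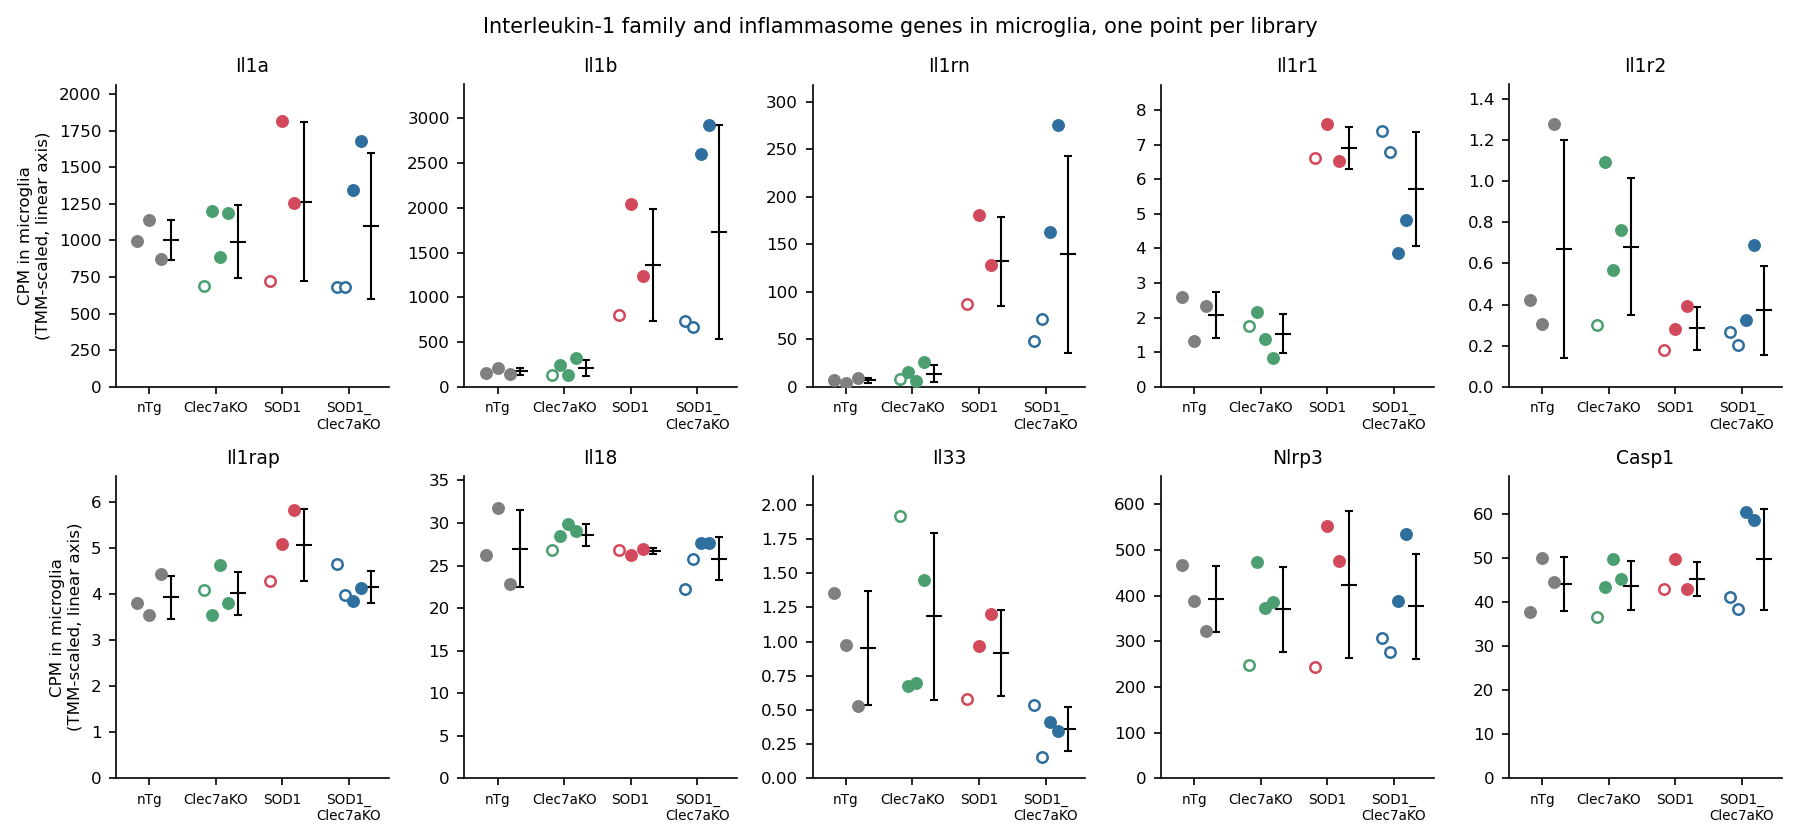
Level of each of the 10 genes in microglia (1 panel per gene, vertical axis in TMM-scaled CPM, linear from 0), with 1 point per library by group; open points are the libraries numbered 1 to 4, and the dash and bar give the mean ± SD. The points of SOD1 and SOD1_Clec7aKO lie above all others for Il1b, Il1rn and Il1r1, and the groups overlap for Il1a, Nlrp3, Casp1 and Il18.

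By count, 3 of the 10 genes rose (Il1b, Il1rn and Il1r1) and 0 fell for SOD1 against nTg, where 19.7% of the 16637 genes tested were higher and 13.4% lower. For SOD1_Clec7aKO against Clec7aKO the same 3 rose and Il33 fell, where 25.4% of all genes were higher and 20.2% lower. Those counts are not far from the shares of all genes. The median log2 fold change of the 10 genes was 0.22 and 0.10, and that of all genes tested was 0.01 in both comparisons.

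The scaling bears on these counts. Library size alone moved the median log2 fold change of all genes tested in microglia to -0.45 for SOD1 against nTg and to -0.49 for SOD1_Clec7aKO against Clec7aKO, so that 8.87% of genes were higher and 35.6% lower in the first and 11.4% and 45.9% in the second. Il1b, Il1rn and Il1r1 rose under that scaling too, with log2 fold changes of 2.51 and 2.54, 3.78 and 2.84, and 1.25 and 1.35 (highest adjusted p = 0.0132). The genes that fell were then Il18 and Il1r2 in the first comparison and Il18, Il1r2, Il1rap and Il33 in the second. Relative to the median of all genes under the same scaling, Il18 lay at -0.03 and -0.17 and Il1r2 at -1.14 and -1.01. Differences of about 0.5 or less on the log2 scale in microglia therefore depend on whether most genes are taken as level or the total UMIs are. In the other tested classes library size alone changed 1 call of the 10 genes, Nlrp3 in ependymal cells (adjusted p = 0.0539), in the comparison of SOD1_Clec7aKO with Clec7aKO.

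In microglia, no difference in the 10 genes with loss of Clec7a passed the test. For SOD1_Clec7aKO against SOD1, 0 of the 10 passed with edgeR, and 0.018% of all genes did. Il1b had a log2 fold change of 0.35 ± 0.51 (adjusted p = 0.777), Il1rn of 0.07 ± 0.54 (adjusted p = 0.961; -0.08 by library size alone) and Il1r1 of -0.27 ± 0.28 (adjusted p = 0.691). The SE of Il1b leaves room for a change in either direction. For Clec7aKO against nTg, 0 of the 10 passed, with 0.0301% of all genes called; Il1b had 0.27 ± 0.51 and Il1rn 0.98 ± 0.59 (adjusted p = 1 for Il1rn). The difference between the transgene contrasts with and without Clec7a, tested as an interaction, passed for 0 of the 10 and for 0% of all genes, with 0.07 ± 0.71 for Il1b and -0.91 ± 0.80 for Il1rn. At an unadjusted edgeR p under 0.05, 1890, 467 and 431 of the 16637 genes were found in these 3 comparisons. Of these counts, 467 and 431 lie under what that threshold alone gives by chance. The DESeq2 Wald test also called 0 members in each.

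By the share of cells with a UMI, Il1b and Il1rn were detected in more microglia with the transgene. With every microglial cell thinned to 3000 UMIs, Il1b was detected in 55.6% ± 11.6 of cells (SD, n = 7; 44.0% to 67.9%) with the transgene and 16.4% ± 1.96 (n = 7; 13.7% to 18.5%) without it. Il1rn was detected in 17.9% ± 7.0 (8.54% to 28.1%) and 1.64% ± 0.306 (1.14% to 2.16%). Neither range overlapped, and the exact permutation test within Clec7a genotype (two-sided, 1400 regroupings) gave p = 0.00143 for both, the smallest it can give. Il1r1 was detected in 1.48% and 0.634% of cells, with ranges that overlapped slightly, 0.852% to 2.03% and 0.193% to 0.875% (exact permutation test, p = 0.00286). The same exact permutation test was then made for all 16637 genes, on the share expected over all draws of 3000 UMIs, a step added after seeing the data; 13.5% of genes had a higher share with the transgene and 52.2% a lower one. There the adjusted p was 0.00399 for Il1b, Il1rn and Il1r1. In that test 3 of the 10 genes were higher and 4 lower (Il18, Casp1, Il1r2 and Il33), and since most genes were lower, the lower shares are no result about these 4.

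Il1a was detected in 68.3% of thinned microglia with the transgene and 73.8% without it (adjusted p = 0.237 over all genes by the exact permutation test), and Nlrp3 in 49.6% and 55.8% (adjusted p = 0.111). Il18 was detected in 6.63% of thinned cells against 9.75% (6.20% to 7.85% against 8.67% to 10.9%), and the unthinned difference had the opposite sign (1.01 percentage points). Thinning sets all cells to the same total and so goes with library size alone, by which Il18 fell and its TMM-scaled level did not pass. For Casp1 the thinned share was 11.3% against 14% (8.58% to 13% against 12.7% to 16.6%), but its TMM-scaled CPM had the opposite sign and neither scaling of the CPM passed, so no order was read from it. Thinned astrocytes, pooled over the libraries of a group, had Il1b in 0.133% of cells in Clec7aKO and 8.51% in SOD1_Clec7aKO, with median depths of 4962 and 3279.5 UMIs against 7823 and 11478 in microglia, and this background is set out below. Microglia too shallow to thin made up 4.62% of the class in SOD1, 3.5% in SOD1_Clec7aKO, 13.1% in nTg and 11% in Clec7aKO, so more were left out where Il1b was low.

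Within single microglia, Il1b was seen more often in cells that had Il1a, and Il1rn and Nlrp3 more often in cells that had Il1b, in each of the 14 libraries; Casp1 did not go one way. Among thinned cells with an Il1a UMI, Il1b was detected in 50% to 75.2% of cells in the libraries with the transgene and 17.1% to 22.5% without it. Among cells with no Il1a UMI, Il1b was detected in 28.5% to 49.3% and 6.10% to 9.87%. Il1b was thus more often seen in Il1a-positive cells in both, and the transgene separated the libraries in either kind of cell. Il1rn was detected in 11.4% to 34.1% of Il1b-positive cells with the transgene and 3.34% to 8.39% without it, and in Il1b-negative cells in 6.44% to 17.2% and 0.381% to 1.39%. Nlrp3 was detected in 47.2% to 69.4% of Il1b-positive and 32.4% to 40.9% of Il1b-negative cells with the transgene, and in 57.1% to 79.0% and 44.9% to 63.4% without it. For Casp1 the shares were 9.57% to 12.9% and 8.66% to 13.8% with the transgene and 13.8% to 19.5% and 11.8% to 16.9% without it, and in 5 of the 14 libraries the share was lower in Il1b-positive cells.

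The microglia formed 11 clusters, and different ones held most of the cells with and without the transgene. Cluster 7, led by the homeostatic genes Crybb1, P2ry12 and Tmem119, and cluster 8, led by Tsix and Xist, together held most cells without the transgene, and each library lay mainly in one of them. Cluster 8 held 65.6% and 67.5% of microglia in nTg_1 and nTg_3 and 66.1% in Clec7aKO_3, with 17.5% to 18.8% in cluster 7, while the other 4 libraries had 77.4% to 87.8% in cluster 7 and at most 0.928% in cluster 8. In the libraries with the transgene, cluster 7 held 1.21% to 9.79%. Cluster 0 (led by Il4i1 and Ccl6) held 20.1% to 24.4% in SOD1 and 21.9% to 29.0% in SOD1_Clec7aKO, cluster 2 (Ppfia4 and Hcar2) 7.37% to 29.1% and 12.4% to 26.7%, and cluster 5 (Gpnmb and Atp6v0d2) 9.80% to 16.2% and 10.1% to 29.0%. Cluster 1 (Ifnb1 and Cxcl10) followed the library number: it held 1.11% to 2.54% in the 3 libraries numbered 1 to 4 with the transgene and 9.98% to 24.2% in the 4 others. Cluster 4 (Il23a and Acod1) held 2.38% to 5.09% and 9.80% to 22.7% by the same split. Tsix and Xist are transcribed in females, and the sex of the mice was not given. Values below are group means over libraries with at least 20 cells of the cluster, in CPM of the cluster with no TMM factor.

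Among the 10 clusters with 20 cells in every library with the transgene, Il1b had its highest means in cluster 4, at 1645 CPM in SOD1 and 1936 in SOD1_Clec7aKO, and in cluster 3, led by the antigen presentation genes H2-Aa and Cd74, at 1604 and 1922. No library without the transgene had 20 cells in cluster 4. The lowest means, 92.4 and 165 CPM, were in cluster 6, led by the haemoglobin genes Hba-a2 and Hbb-bt. Within cluster 7 it was still higher with the transgene: 145 CPM in nTg (73.6 to 204) and 129.5 in Clec7aKO (85.3 to 161) against 387 in SOD1 (307 to 496) and 384 in SOD1_Clec7aKO (288 to 511), with no overlap. In cluster 0 the few cells without the transgene already had 1262 CPM in nTg (1 library) and 1105 in Clec7aKO (912 to 1297), against 1179 in SOD1 (947 to 1566) and 1578 in SOD1_Clec7aKO (612 to 2501), which overlapped. Both the clusters that held the cells and the level inside cluster 7 differed with the transgene.

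Il1rn was likewise higher in cluster 7, with 3.67 CPM in nTg (3.29 to 4.33) and 3.51 in Clec7aKO (2.32 to 4.50) against 14.1 in SOD1 (5.95 to 22.1) and 18.2 in SOD1_Clec7aKO (9.74 to 31.6), and with the transgene its highest mean was in cluster 4, at 199.9 CPM in SOD1 and 209.9 in SOD1_Clec7aKO. Il1a and Nlrp3 had lower group means with the transgene inside some clusters, while over all microglia they did not pass under either scaling. In cluster 1, Il1a was 2472 CPM in nTg and 2250 in Clec7aKO against 1698 in SOD1 and 1498 in SOD1_Clec7aKO. These levels have no TMM factor, which over all microglia was 0.773 to 0.928 with the transgene and 1.04 to 1.25 without it. A difference of this size therefore depends on the scaling. In cluster 2, Nlrp3 was 515 CPM in nTg (359 to 671) and 402 in Clec7aKO (354 to 449) against 209 in SOD1 (179 to 249) and 235 in SOD1_Clec7aKO (221 to 249.8), with no overlap. In SOD1, the cluster means of Casp1 lay between 36.0 and 49.3 CPM, and those of Il18 between 17.2 in cluster 4 and 59.5 in cluster 14, led by the interferon-induced genes Ifit2 and Ifit3. No test was made within clusters, since the clusters rest on the same cells.

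**Figure D3:**
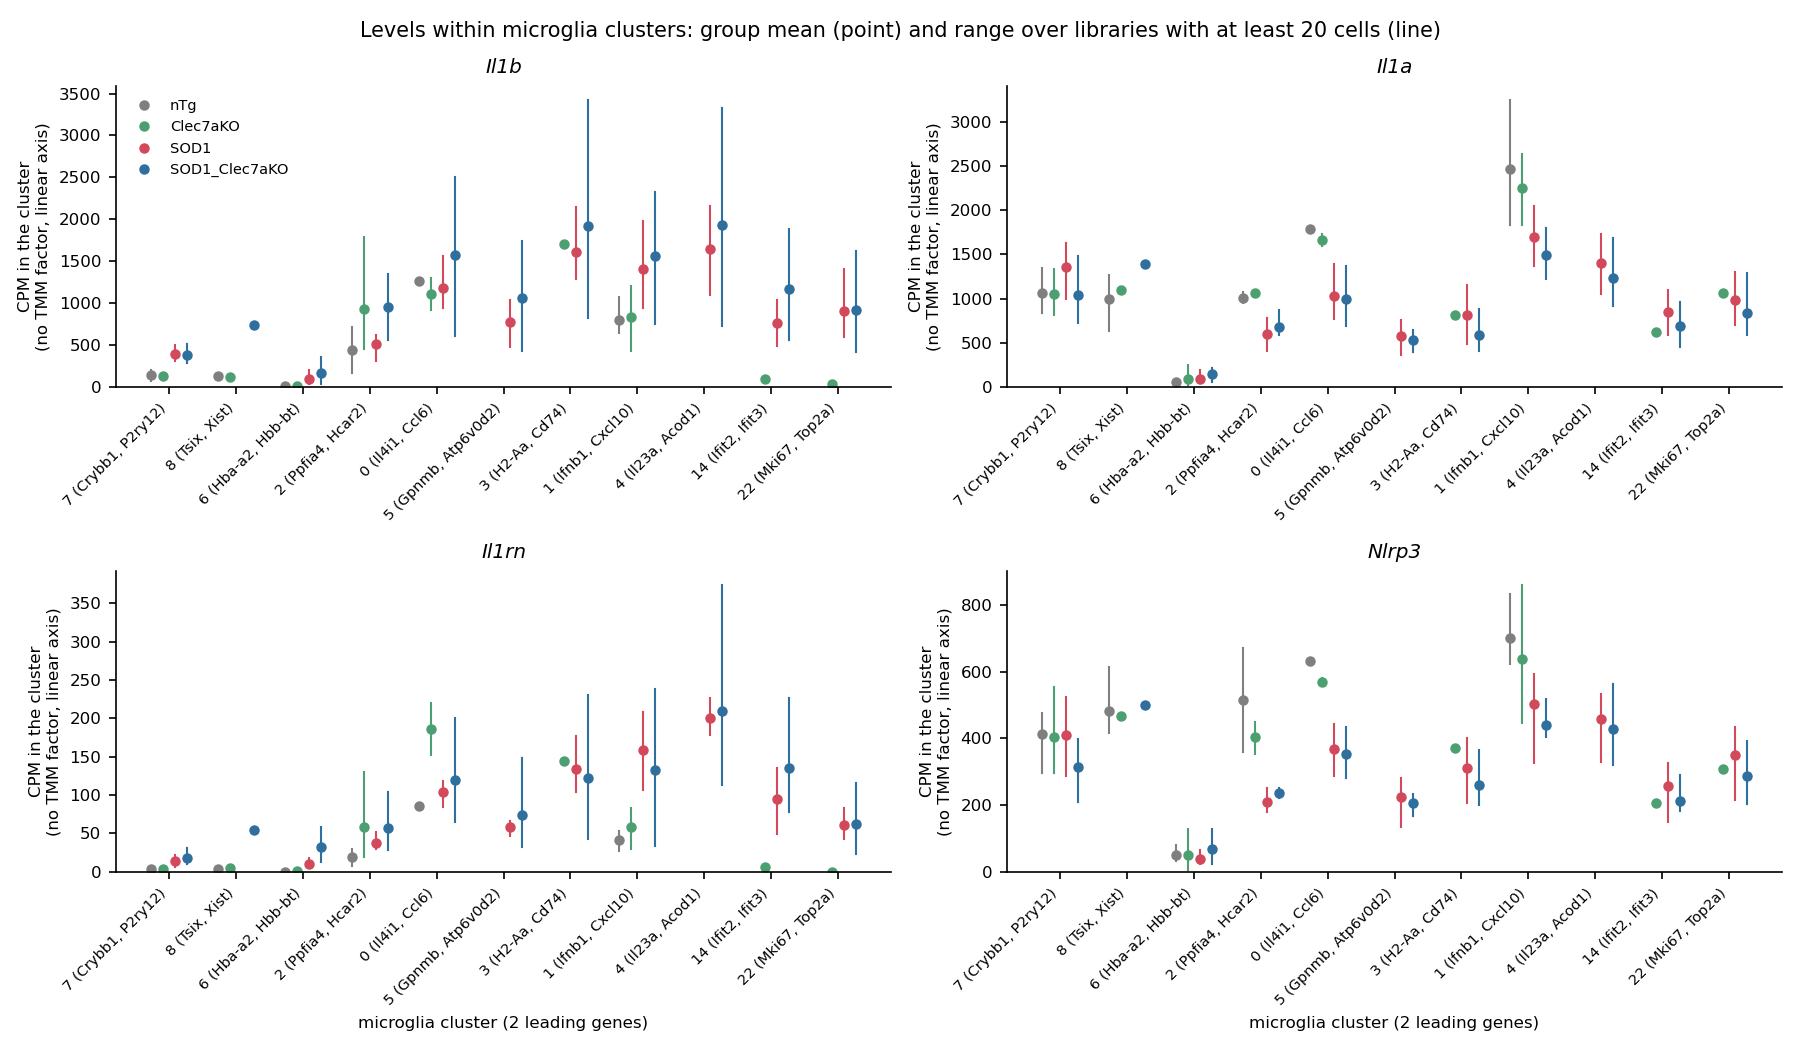
Level of Il1b, Il1a, Il1rn and Nlrp3 (1 panel each, vertical axis in CPM with no TMM factor) in each microglia cluster by group; points are means over the libraries with at least 20 cells of the cluster and lines their range. In cluster 7 the transgenic groups lie above the others for Il1b and Il1rn, and in clusters 1 and 2 the means of the groups without the transgene lie higher for Il1a.

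Other values moved with these results in the microglia. Summed over 7 monocyte markers, microglia had 4.71 to 5.57 CPM in nTg, 5.13 to 10.9 in Clec7aKO, 141 to 199 in SOD1 and 135 to 258 in SOD1_Clec7aKO. Summed over 8 markers of border-associated macrophages they had 76.9 to 88.2, 68.7 to 99.0, 131 to 157 and 140.4 to 192. Of these 8 markers, 7 exceeded 3 UMIs in a library, and only Lyve1 did not. The marker Ms4a7 is also a leading gene of microglia cluster 5, which held more of the microglia with the transgene. The sum is thus not specific to border-associated macrophages. Neutrophil markers gave 171 to 234 CPM over all groups, and 7 of the 8 exceeded 3 UMIs in a library, all but Ly6g. A list of 19 dissociation stress genes summed to 33167 to 53975 CPM without the transgene and 20800.2 to 28473 with it. The part of these in the Il1b, Il1rn and Il1r1 results was not tested.

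Genes that act with the 10 members moved in both directions. The counts below stand beside the shares of all genes tested in microglia, 19.7% higher and 13.4% lower for SOD1 against nTg and 25.4% and 20.2% for SOD1_Clec7aKO against Clec7aKO. Of 10 genes of receptor signalling, 0 rose and 2 fell for SOD1 against nTg, and 2 rose and 3 fell for SOD1_Clec7aKO against Clec7aKO, with medians of -0.02 and -0.05; the falls and the 2 rises are near the shares of all genes. Myd88, the adaptor that receptors of the family and Toll-like receptors share, fell by 0.88 on the log2 scale in both (adjusted p = 0.00837 and 0.00221), and Tab2, which links TRAF6 to the kinase TAK1, fell by 0.50 and 0.81 (adjusted p = 0.0497 and 0.00109). Tollip, an inhibitor of the pathway, fell by 0.54 in the second comparison (adjusted p = 0.00842) and had -0.31 in the first (adjusted p = 0.172), and Sigirr, an inhibitory receptor, rose there by 0.84 (adjusted p = 0.0302) with 0.40 in the first (adjusted p = 0.38). Irak3, another inhibitor, was the other gene that rose there (0.53, adjusted p = 0.042), named after its value was seen, and it had 0.03 by library size alone (adjusted p = 0.92). The Tab2 call of the first comparison was lost in 11 of 25 alternatives, among them without any single nTg or SOD1 library or without Clec7aKO_1, Clec7aKO_2 or Clec7aKO_3 (adjusted p = 0.054 to 0.176). The Sigirr call was lost in 8, among them by library size alone (0.32, adjusted p = 0.358) and without Clec7aKO_2, Clec7aKO_3, SOD1_Clec7aKO_2 or SOD1_Clec7aKO_3 (adjusted p = 0.0677 to 0.136). Sigirr was also low, at 0.503 ± 0.104 CPM in Clec7aKO and 0.893 ± 0.230 in SOD1_Clec7aKO.

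Of the other receptors, decoys and ligands of the family, 4 of 9 in the files could be tested. Il18bp, the soluble decoy of interleukin-18, rose from 1.16 ± 0.152 CPM in nTg to 7.42 ± 1.27 in SOD1 (log2 fold change 2.68 ± 0.41, adjusted p = 0.000229) and from 1.27 ± 0.525 in Clec7aKO to 6.32 ± 2.96 in SOD1_Clec7aKO (2.27 ± 0.35, adjusted p = 0.000126). It rose while Il18 itself did not. Il1rl2, the receptor for interleukin-36, fell by 0.36 and 0.43 (adjusted p = 0.0458 and 0.00688), and its first call was lost in 13 of 25 alternatives, among them without any single nTg or SOD1 library or without Clec7aKO_1, Clec7aKO_2 or Clec7aKO_3 (adjusted p = 0.0531 to 0.155).

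Of 13 inflammasome sensors, adaptors and regulators tested, 5 rose and 1 fell for SOD1 against nTg, and 3 rose and 3 fell for SOD1_Clec7aKO against Clec7aKO, with medians of -0.02 and -0.21. All genes gave 19.7% higher and 13.4% lower in the first and 25.4% and 20.2% in the second, so the second count is near the shares of all genes. Pycard (ASC), the adaptor that joins NLRP3 to caspase-1, rose from 199 ± 6.54 CPM in nTg to 418 ± 28.9 in SOD1 (1.07 ± 0.19, adjusted p = 0.000736) and from 198 ± 23.3 to 414 ± 103 in the other comparison (1.06 ± 0.16, adjusted p = 0.000141); it and Panx1 and Naip2 are named after their values were seen. Txnip, a thioredoxin-binding protein reported to engage NLRP3, fell from 391 ± 41.0 CPM to 128 ± 13.8 (by 1.61, adjusted p = 1.73e-05) and from 421 ± 37.5 to 117 ± 24.5 (by 1.85, adjusted p = 7.39e-07). The interferon-induced GTPase gene Gbp5 rose for SOD1 against nTg (1.18, adjusted p = 0.00255) and had -0.21 in the other comparison (adjusted p = 0.455); the interaction did not pass (-1.39 ± 0.33, adjusted p = 1). Mefv, which encodes pyrin, rose by 1.08 (adjusted p = 0.0218; 0.0653 to 0.10 without nTg_1, nTg_2 or SOD1_2) and had 0.68 in the other comparison (adjusted p = 0.074), where it passed with libraries 1 to 4 as a block (0.75, adjusted p = 0.0471) and without Clec7aKO_2 (0.89, adjusted p = 0.0426). Nlrp1a, a sensor, had -0.49 (adjusted p = 0.396) and fell by 1.27 (adjusted p = 0.0135). Panx1, a channel for ATP release, rose in both (0.86 and 0.81, adjusted p = 0.0109 and 0.00397), as did Naip2 (0.76 and 0.51). By library size alone Panx1 had 0.40 and 0.31 (adjusted p = 0.148 and 0.173) and Naip2 0.29 and 0.0023 (adjusted p = 0.28 and 0.992), so neither passed, and Mefv lost its call (0.61, adjusted p = 0.152), while Pycard passed in both (0.61 and 0.56, adjusted p = 0.0313 and 0.0188) and Gbp5 fell by 0.73 in the second comparison (adjusted p = 0.00871).

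Of 5 genes of caspases and membrane rupture, Ninj1, which mediates plasma membrane rupture, rose (1.09 and 1.27, adjusted p = 0.0015 and 8.8e-05). Casp4, which encodes the mouse caspase-11 that senses cytosolic lipopolysaccharide, fell by 1.08 and 1.15 (adjusted p = 0.00234 and 0.000293), and Casp8 by 0.51 and 0.54 (adjusted p = 0.0219 and 0.00512). Gsdme, a pore-forming gasdermin, fell by 0.49 in the first comparison (adjusted p = 0.0373) and had -0.11 in the second (adjusted p = 0.569). In all, 1 rose and 3 fell in the first and 1 rose and 2 fell in the second, with medians of -0.49 and -0.11, where 13.4% and 20.2% of all genes fell; with 5 genes nothing is read from these counts. In the first comparison the Casp8 call was lost without nTg_2, nTg_3 or SOD1_3 (adjusted p = 0.0796 to 0.0845), and the Gsdme call without these or SOD1_2 (adjusted p = 0.101 to 0.138).

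Of 13 NF-kB target genes, 3 rose in each comparison, near the 19.7% and 25.4% of all genes that rose, so the count is no result about the list: the neutrophil-attracting chemokine genes Cxcl1 (6.78 ± 1.24 and 5.67 ± 1.01) and Cxcl2 (3.04 and 3.07), and Ptgs2 (3.01 and 2.26), which encodes an inducible cyclooxygenase. Cxcl2 was 179 ± 97.4 CPM in nTg and 1472 ± 569.8 in SOD1, and 156 ± 73.7 in Clec7aKO and 1304 ± 698 in SOD1_Clec7aKO. Cxcl1 was 0.429 ± 0.155 CPM in nTg and 50.5 ± 57.0 in SOD1, and 0.749 ± 0.659 in Clec7aKO and 38.6 ± 37.4 in SOD1_Clec7aKO. The size of its change thus rests on low levels without the transgene. None of the 3 had an adjusted p over 0.00443. Ccl2, a monocyte chemoattractant, had 0.25 in the first comparison (adjusted p = 0.792) and fell by 1.46 in the second (adjusted p = 0.0472). That Ccl2 call was lost in 10 of 25 alternatives, 7 of them without single libraries (Clec7aKO_2, Clec7aKO_4, nTg_2, SOD1_2, SOD1_Clec7aKO_1, SOD1_Clec7aKO_2 and SOD1_Clec7aKO_4; adjusted p = 0.0579 to 0.126). The medians of the list were 0.33 and 0.09. Of 19 dissociation stress genes, 0 rose and 8 fell in the first comparison and 0 rose and 13 fell in the second (medians -0.65 and -1.0), where 13.4% and 20.2% of all genes fell, with Klf2 falling by 2.29 and 2.42. No gene of these lists passed in the 3 other microglia comparisons. Gbp5 did pass for SOD1_Clec7aKO against SOD1 with the DESeq2 Wald test (-1.03, adjusted p = 0.0265), with no filter on low counts (-1.07, adjusted p = 0.0394) and without SOD1_1 (-1.29, adjusted p = 0.022). Of the pathway and stress genes that rose, 7 of 10 in the first comparison and 6 of 10 in the second also rose by library size alone. By that scaling 6 and 7 genes of receptor signalling, 4 and 9 of the inflammasome list, 4 and 4 of the caspase list, 3 and 6 of the NF-kB targets and 17 and 17 of the stress genes fell. Of all genes, 35.6% and 45.9% were lower by the same scaling. The NF-kB counts and the first inflammasome count lay near or under those shares.

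Across the 14 microglia sums, the genes whose log2(CPM + 1) most closely followed each of the 6 members with a mean of at least 5 CPM are given as a description, since the libraries share their groups and depth. Il1b followed Vps29 (Pearson's r = 0.984), H2-D1 (0.981) and Plk2 (0.981), and Il1rn followed Plk2 (0.984), Ptges (0.981) and Smim3 (0.980). Il1a was closest to Ifnb1 (0.929), Tgif1 (0.916) and Maff (0.916), and Nlrp3 to Il1a itself (0.898), Gm9320 (0.892) and Ifnb1 (0.889). Casp1 was closest to Ftl1-ps1 (0.948), Rps2-ps10 (0.929) and Rpl9-ps6 (0.926), all pseudogenes, and Il18 to Gm43144 (0.786), Depdc7 (0.776) and Nup35 (0.775). Of these 6, only Il1a appeared among the 3 closest genes of another.

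In astrocytes, the signalling receptor gene rose and the alarmin gene fell. Il1r1 was 0.282, 0.613 and 0.472 CPM in nTg (1 to 2 UMIs per library) and 1.43, 1.02, 0.392 and 0.898 in Clec7aKO (1 to 8 UMIs). It was 7.55, 22 and 10.7 CPM in SOD1 (7 to 27 UMIs) and 13.5, 11.4, 25 and 13.3 in SOD1_Clec7aKO (2 to 28 UMIs). Every library with the transgene was above every library without it. The log2 fold change was 4.71 ± 0.56 (adjusted p = 6.27e-06) and 3.82 ± 0.48 (adjusted p = 1.09e-05), with a size that depends on the prior count of the fit because the lower groups rest on few UMIs. Il1r1 passed the filter on low counts only through the libraries with the transgene, so it had to differ, and the call is given as a description.

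Il33 was 109.6, 140.3 and 133 CPM in nTg and 113, 134, 109 and 144 in Clec7aKO. It was 66.9, 62.4 and 58.5 CPM in SOD1 and 51.8, 28.0, 57.1 and 106 in SOD1_Clec7aKO, so the groups did not overlap although SOD1_Clec7aKO_4, with 34 astrocytes, came near. It fell by 1.04 (SE 0.24, adjusted p = 0.0026) and by 1.28 (SE 0.23, adjusted p = 0.000344) on the log2 scale. Il18 was 79.4 to 105 CPM in nTg, 104 to 121 in Clec7aKO, 66.9 to 86.1 in SOD1 and 70.1 to 113 in SOD1_Clec7aKO, with overlap. Its log2 fold change was -0.35 (adjusted p = 0.134) for SOD1 against nTg, and it fell by 0.54 (SE 0.17, adjusted p = 0.0173) for SOD1_Clec7aKO against Clec7aKO. That call was lost without SOD1_Clec7aKO_1 (adjusted p = 0.0933), without SOD1_Clec7aKO_2 (adjusted p = 0.0667) and with only the 2 groups fitted (adjusted p = 0.0503).

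The make-up of the astrocytes moved with the transgene too. Cluster 21, led by the reactive genes Gfap, C3 and S100a6, made up 6.21% to 11.6% of astrocytes without the transgene and 38.2% to 57.6% with it; the others were in cluster 20, led by Slc7a10 and Gjb6. Il1r1 was higher with the transgene within cluster 20, at 0.255 to 0.647 CPM in nTg and 0 to 1.05 in Clec7aKO against 1.95 to 23.7 in SOD1 and 4.74 to 33.4 in SOD1_Clec7aKO. In cluster 21 it was 0 to 3.57 CPM in nTg against 11 to 17.8 in SOD1, with no overlap, and 0 to 17.6 in Clec7aKO against 8.71 to 23.8 in SOD1_Clec7aKO, which overlapped. Il33 was lower in cluster 21 than in cluster 20 in each group mean (53.8, 51.4, 18.2 and 18.9 CPM in nTg, Clec7aKO, SOD1 and SOD1_Clec7aKO against 135, 130.5, 97.8 and 88.3). Within cluster 20 the Il33 ranges were 120.0 to 144 and 115.3 to 147 without the transgene and 88.0 to 107 and 60.0 to 134 with it, which overlap through SOD1_Clec7aKO.

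By count, 5 of the 9 genes tested in astrocytes rose and 1 fell for SOD1 against nTg, where 17.1% of all genes were higher and 15.6% lower. For SOD1_Clec7aKO against Clec7aKO, 5 rose and 2 fell, where 17.8% were higher and 15.5% lower. Of the 37 pairs of a gene and a class tested outside microglia, 9 reached the filter on low counts only in libraries with the transgene (Il1b in astrocytes, mural cells and oligodendrocyte precursors, Il1rn in astrocytes, endothelial and ependymal cells, Il1r1 in astrocytes and oligodendrocyte precursors, and Nlrp3 in astrocytes). In endothelial and ependymal cells Il1b reached it in 7 libraries with the transgene and in only 1 and 2 without it. The counts outside microglia are therefore descriptions. Besides Il1r1, the genes that rose were Il1a, Il1b, Il1rn and Nlrp3, which are microglial genes in this tissue. The Nlrp3 call of the first comparison was lost without nTg_3 or SOD1_3 (adjusted p = 0.0748 and 0.287) and with doublets kept (adjusted p = 0.335). In the second comparison the Il1a and Nlrp3 calls were each lost under 1 alternative. Il1b in astrocytes was 0.392 to 2.69 CPM without the transgene, 21.1 to 30.8 in SOD1 and 59.0 to 339 in SOD1_Clec7aKO. It passed in SOD1_Clec7aKO against SOD1 as well (2.51 ± 0.39, adjusted p = 0.0161), where 0.0315% of all genes were higher. That call was lost with doublets kept (adjusted p = 0.712), at Leiden resolution 0.5, with only the 2 groups fitted (adjusted p = 0.134), and without SOD1_2 (adjusted p = 0.21), SOD1_3 (adjusted p = 0.0721) or SOD1_Clec7aKO_2 (adjusted p = 0.0725).

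The same genes were called in the other classes. In endothelial cells 4 of 8 tested rose for SOD1 against nTg (1.2% of all genes higher) and 3 for SOD1_Clec7aKO against Clec7aKO (1.02%): Il1a, Il1b and Il1rn in both and Nlrp3 in the first. In ependymal cells 4 of 8 rose in both, again Il1a, Il1b, Il1rn and Nlrp3 (1.11% and 1.15% of all genes higher). In oligodendrocyte precursors 2 of 8 rose in both, Il1b and Il1r1 (0.726% and 2.73% of all genes higher), and in mural cells 0 and 1 of 4, Il1b in the second (0.106% and 0.172% of all genes higher). The mural call of Il1b was lost without Clec7aKO_1, Clec7aKO_2, Clec7aKO_3 or SOD1_Clec7aKO_3 (adjusted p = 0.0754 to 0.644), and the endothelial Nlrp3 call without nTg_1, nTg_3 or SOD1_2 (adjusted p = 0.112 to 0.151). The endothelial Il1a call of the second comparison and the endothelial Il1rn call of the first were each lost under 1 alternative. So were both Il1b calls in oligodendrocyte precursors. In ependymal cells, the second comparison lost at least 1 of its Il1a, Il1rn and Nlrp3 calls without each single library other than Clec7aKO_1 and SOD1_3 (adjusted p up to 0.244), and the first lost Il1rn and Nlrp3 without SOD1_2 (adjusted p = 0.0985 and 0.111). In at least 1 of these comparisons, Il1a, Il1rn and Nlrp3 in oligodendrocyte precursors, Nlrp3 in endothelial cells, Il1b in mural cells and Casp1 in ependymal cells passed under some alternatives only.

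In droplet data, free RNA gives counts in cells that do not express a gene, so the level of each gene in a class, with no TMM factor, was set beside that of 12 microglia markers. In libraries with the transgene, astrocytes had a median of 9.67% of the microglial level of those markers, and they had 8.93% of the microglial Il1b level, 6.02% of Il1a, 5.29% of Il1rn and 6.60% of Nlrp3. The 12 markers ranged over 8.36% to 75.3%. By group, astrocytes had 2.19% of the microglial Il1b level in SOD1, with a marker median of 5.48%, and 13.3% in SOD1_Clec7aKO, with a marker median of 13.1%, so the markers moved with the Il1b difference between those groups. Without the transgene the marker median was 0.86% and the 4 genes lay at 0.43% to 0.60%. Endothelial cells had 2.59% of the microglial Il1b level with a marker median of 3.54%, ependymal cells 2.47% with 3.03%, oligodendrocyte precursors 2.75% with 2.65% and mural cells 4.96% with 7.83%. At these levels the Il1a, Il1b and Nlrp3 counts of the non-myeloid classes lay at or near the background of microglial RNA. Il1rn did not do so in each class. Over all 14 libraries it had 12.4% of the microglial level in oligodendrocyte precursors, with a marker median of 1.78% and a range of 1.33% to 16.9%. That value rests on 56 UMIs, with more than 3 in only 5 libraries. In endothelial cells Il1rn had 3.03%, with a marker median of 2.04% and a range of 1.69% to 3.00%. No expression of the 4 genes in the non-myeloid classes was read from these counts.

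**Figure D4:**
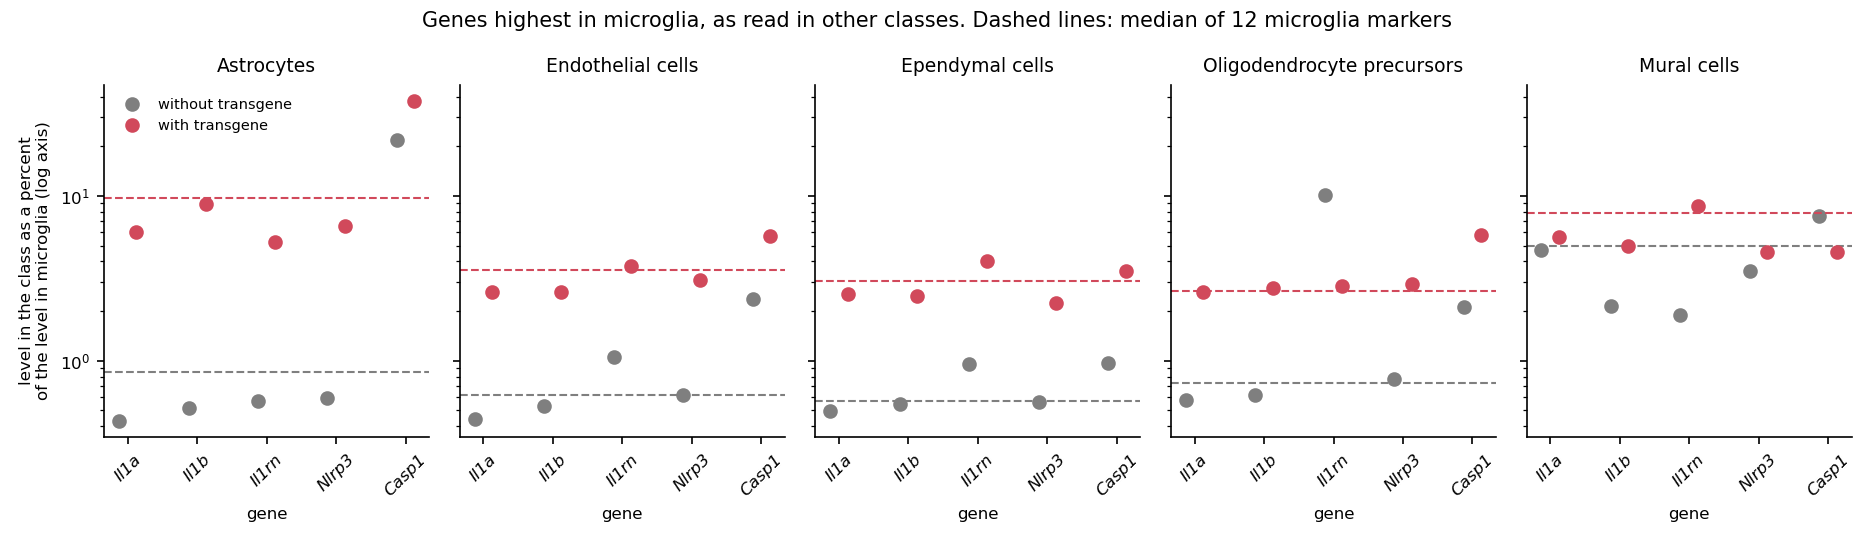
Level of Il1a, Il1b, Il1rn, Nlrp3 and Casp1 in 5 other classes as a percent of their level in microglia (logarithmic axis), with and without the transgene; dashes mark the median of 12 microglia markers in the same class. Il1b lies near the dash in each class, at 8.93% against 9.67% in astrocytes with the transgene, and Casp1 in astrocytes lies above it.

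Il1r1 was set beside 8 endothelial markers in the same way. Mural cells, where it was highest, were not used as a source, so the part of RNA from other cells in its level was not tested. Relative to endothelial cells, astrocytes had 34.9% of the Il1r1 level with the transgene and 2.42% without it, while the markers had medians of 0.49% and 0.42%. Oligodendrocyte precursors had 9.71% and 0.64% of the endothelial Il1r1 level with marker medians of 0.16% and 0.25%, and microglia 12.6% and 7.07% with 0.14% and 0.27%. The 8 markers in microglia ranged over 0.0835% to 2.0% with the transgene and 0.214% to 3.77% without it, while their summed CPM in microglia was higher with the transgene as given above. For Il33, microglia had 0.482% of the astrocyte level in SOD1_Clec7aKO and 1.09% in Clec7aKO, while 8 astrocyte markers had medians of 0.263% and 0.769% and ranged up to 10.4% and 16.6%, so Il33 lay within the range of those markers and moved the same way as their median. Casp1 in astrocytes was 38.0% of the microglial level with the transgene and 22% without it, and its level in CPM did not pass the test (log2 fold change 0.27 for SOD1 against nTg, adjusted p = 0.53 and 0.684), except at Leiden resolution 0.5 for SOD1 against nTg (0.73, adjusted p = 0.0364).

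In oligodendrocyte precursors, the class in which it was highest with more than 1 library, Il1rap was 105, 95.2 and 93.6 CPM in nTg, 91.1, 91.1, 104 and 47.4 in Clec7aKO, 101, 134 and 141 in SOD1, and 111, 83.3, 69.8 and 79.9 in SOD1_Clec7aKO. The groups overlapped, and the log2 fold change was 0.36 (adjusted p = 0.582) and 0.05 (adjusted p = 0.931). Il1r1, its partner, was at 0 to 0.544 CPM in the 7 libraries without the transgene (0 to 2 UMIs each) and 1.40 to 7.86 in those with it (2 to 24 UMIs). The ranges did not overlap (adjusted p = 0.00965 and 0.0433), but the gene passed the filter on low counts only through libraries with the transgene, so the call is a description. The first call was lost without nTg_1 (adjusted p = 0.0652), nTg_3 (0.069), SOD1_2 (0.0687) or SOD1_3 (0.0502) and with Xist as a covariate (0.205), and the second in 11 alternatives, 10 of them without a single library (adjusted p = 0.0519 to 0.133). Il18 was 56.3 to 97.9 CPM over all libraries and did not pass.

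In vessel cells, where Il1r1 was highest, it did not follow the transgene. Endothelial cells had 37.9, 30.0 and 23.5 CPM in nTg, 23.3, 51.0, 25.7 and 20.2 in Clec7aKO, 29.1, 54.0 and 65.0 in SOD1, and 65.1, 40.6, 23.5 and 18.3 in SOD1_Clec7aKO. The groups overlapped (log2 fold change 0.69 and 0.31, adjusted p = 0.938 and 0.81). Cluster 19, led by Slc38a5, Vwf and Slco1a4, had a mean of 59.1 CPM, and cluster 18, led by the arterial genes Cxcl12, Alpl and Sema3g, had 14; their ranges over libraries, 33.3 to 107 and 5.06 to 22.9, did not overlap. Mural cells had 27.3 to 76.8 CPM, with overlapping groups. The 3821 unnamed cells with endothelial and mural markers are in neither class.

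**Figure D5:**
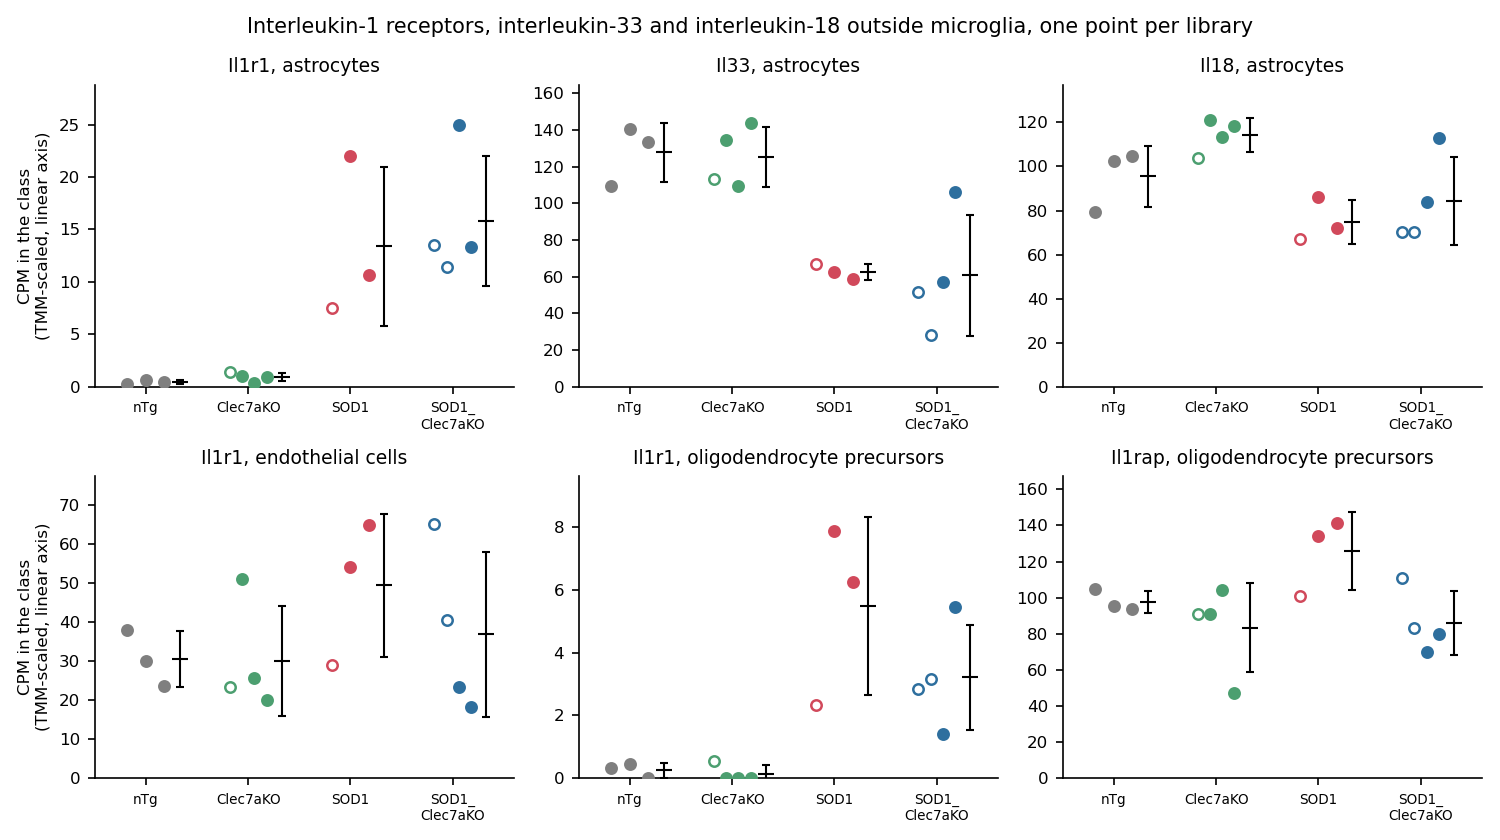
Level per library (vertical axes in TMM-scaled CPM) of Il1r1, Il33 and Il18 in astrocytes, Il1r1 in endothelial cells, and Il1r1 and Il1rap in oligodendrocyte precursors, by group, with mean ± SD. In astrocytes Il1r1 lies higher and Il33 lower in all 7 libraries with the transgene, and in endothelial cells the groups overlap.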

How the data were processed

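Single cells of whole spinal cords, dissociated with enzymes at 37 °C and depleted of myelin, were captured with the 10x 3' kit v3.1, per the labels' protocols. The authors deposited raw UMI counts per gene and barcode, with no normalization. The submitters' processing notes name Cell Ranger, Seurat, DESeq2 and mm10. The rule for calling cells and whether counting used strand are not given in the sources used here; Il1a, Il1b, Il1r1, Il1r2, Il1rap and Il18 overlap other annotated genes and their counts are uncertain to that extent.

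Barcodes with at least 500 genes, 1000 UMIs and at most 15% mitochondrial UMIs were kept, and doublets were removed by a Scrublet-like score at 0.8% per 1000 barcodes; these steps removed 7127, 4963 and 6784. Libraries shared 2.45% to 3.33% of their barcodes with others. Clustering used 2000 variable genes without the 10 members, 30 components, 15 neighbours and Leiden resolution 1 (scanpy 1.11.5), which gave 29 clusters. A cluster took the name of the class with the highest mean marker fold, unless a second class exceeded a log2 fold of 5, a limit set after seeing the data that left 3821 cells with endothelial and mural markers unnamed. The neutrophil cluster was an exception: it kept its name with monocytes as second class at 5.55. Its leading genes were S100a9, S100a8, Retnlg, Camp, Ngp, Lcn2, Ltf, Elane, Wfdc21 and Chil3. A cluster of 978 cells led by genes of another class also stayed unnamed, as did 552 cells of a cluster of 613 that was split into 8 after seeing the data. The classes were rebuilt and can differ from those of the study.

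For each library the UMIs of a class were added up, and all 14 libraries were fitted with edgeR 4.0.16 (TMM, filterByExpr, a term per group, two-sided quasi-likelihood test, Benjamini-Hochberg adjustment over all genes tested in the class, threshold 0.05). Levels are CPM of the class, TMM-scaled in the tested classes, in libraries with at least 20 of its cells, with a floor of 3 UMIs; floors cover counting error only. P-values measure only the spread between these samples. Counts come from transcript 3' ends, so levels of different genes were not ranked against each other. Up to 4 genes per pathway list were named, by the largest change among those past the threshold. Alternatives were DESeq2 1.42.0, no filter, a replicate block, library number or Xist as covariates, only the 2 groups, doublets kept, Leiden resolution 0.5, leaving out each library and, added after seeing the data, libraries 1 to 4 as a block, scaling by library size alone and, for shares of cells, adjustment over all genes. Scripts were tested on simulated counts. The 10 genes and the lists were chosen with earlier results of these data known.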

Additional observations from a re-analysis of the deposited data

Results flagged for a closer look

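In 6 of 86 groups of 4 libraries, 1 library stood apart from the other 3 of its group by Dixon's criterion at the 95% level. Chance alone puts about 1 in 20 groups there, and none of the 6 was in microglia. In astrocytes, Casp1 was 33.2 CPM in SOD1_Clec7aKO_4 against 10.7 to 13.5 in the other 3, Il1r1 was 25 in SOD1_Clec7aKO_3 against 11.4 to 13.5, and Nlrp3 was 49.7 in SOD1_Clec7aKO_2 against 25 to 28.1. In ependymal cells, Il1rn was 15.5 CPM in SOD1_Clec7aKO_4 against 1.06 to 3.35. That library had the smallest class sums of the 14, 144832 UMIs in astrocytes and 254694 in ependymal cells. Its Casp1 and Il1rn values therefore rest on few UMIs. In endothelial cells, Il33 was 2.52 CPM in Clec7aKO_1 against 0.765 to 0.794, and in oligodendrocyte precursors, Nlrp3 was 7.07 CPM in Clec7aKO_1 against 3.06 to 3.65. Of 47 tests of whether the transgene contrast differed with Clec7a genotype, 0 passed for a member in any class; with no filter on low counts 1 did, Il1b in astrocytes (3.11, adjusted p = 0.0251), where its counts lay near the background of microglial RNA.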

How the results depend on the processing

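The counts of members called in microglia kept to within 1.5 times under 24 of 25 alternatives: 3 to 4 for SOD1 against nTg and 4 to 5 for SOD1_Clec7aKO against Clec7aKO. By library size alone they became 5 (3 rose and 2 fell) and 7 (3 rose and 4 fell), by construction, since that scaling moved the median of all genes by -0.46 and -0.51, and Il1rap in the second changed sign from 0.05 to -0.46. The counts were 0 for the other comparisons under all alternatives run (the interaction has no fit with only its groups). The log2 fold changes of Il1b ranged over 2.51 to 3.66 and 2.54 to 3.36, of Il1rn over 3.78 to 5.08 and 2.74 to 3.82, and of Il1r1 over 1.25 to 1.95 and 1.35 to 2.06, with the highest adjusted p at 0.0132. In astrocytes, Il33 ranged over -1.25 to -0.83 and -1.45 to -1.02. Member-class pairs called outside microglia were 16 for SOD1 against nTg and 8 with Xist as a covariate; leaving out single libraries gave 12 to 18. For SOD1_Clec7aKO against Clec7aKO they were 17, with 10 when only the 2 groups were fitted and 11 to 16 without single libraries (11 without Clec7aKO_2, Clec7aKO_3 or SOD1_Clec7aKO_2). For SOD1_Clec7aKO against SOD1 the 1 pair became 0 with doublets kept, at Leiden resolution 0.5 or with only the 2 groups, became 6 with no filter on low counts, and was 0 to 1 without single libraries. For Clec7aKO against nTg 0 became 1 with no filter. The cause of these changes was not tested. For the share of cells, 5 members passed as designed, which adjusts over the 10 genes and is no independent support; 7 passed with adjustment over all genes and 3 without thinning, and the differences in share reversed for Il18 (1.01 percentage points) and Casp1 (5.95); leaving out single libraries gave 5 to 7. With the replicate block, microglia gave 3 and 4 calls and 0 in the others, and the other classes 17, 18, 1 and 0. The block rests on a shared number only, since same-numbered microglia libraries had correlations from -0.269 to 0.530, of which 11 of 19 were over 0.1. Mean levels by class moved beyond the spread between libraries in 27 recomputed values and stayed within it in 93. Depth limits what can be said of Il33 and Il1r2 in microglia and of Il1r1 in oligodendrocyte precursors, which rest on few UMIs per library.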

Other observations

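Border-associated macrophages, the resident macrophages of meninges and vessels, carried Il1b without the transgene already. It was 703 CPM in nTg (235 and 1171 in 2 libraries) and 1122 in Clec7aKO (256 to 2779), against 1020.2 in SOD1 (846 to 1248) and 1293 in SOD1_Clec7aKO (222 to 3132), so the groups overlapped. As a percent of the microglial level, their Il1b was 422% without the transgene and 90.8% with it, where microglia markers had medians of 16.6% and 50.8% in the class. Il1a in these macrophages was 50.3 CPM in nTg (34.1 to 66.5) and 52.2 in Clec7aKO (10.5 to 94.5), against 347 in SOD1 (188 to 526) and 212 in SOD1_Clec7aKO (148 to 338), with no overlap. That is 4.33% of the microglial Il1a level without the transgene and 27.6% with it, both under the marker medians of the class, so no expression of Il1a by these macrophages was read from it. No test was made, since some libraries held fewer than 20 of these cells.

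T and NK cells had 39.0% of the microglial Il1b level with the transgene and 1.07% without it, where microglia markers had medians of 31.1% and 11.9%. Neutrophils were the other class with high Il1b, Il1rn and Il1r2, and of those deep enough to thin 95 came from Clec7aKO libraries and 3 to 8 from each other group.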
